A study of Mus musculus with 4 samples.

Results

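The genes described are G protein-coupled receptors that respond to nucleotides and lipid mediators, together with the numbered Gpr genes, many of which are orphans with no settled ligand. They were selected by their symbol alone: Gpr, P2ry, S1pr, Lpar or Ptger directly followed by a number. Of 102 mouse genes in the annotation whose symbol has this form, 95 had a probe on the array (108 probes in all), and 43 of these were tested, out of 22362 genes and unnamed transcripts tested on the array. The rule itself uses no measured value. The rule follows the name and not the protein, so it also takes in a few membrane proteins that are not classical receptors, such as Gpr107, Gpr108, Gpr137 and Gpr89, and the gene Gpr137b-ps, which is listed as a pseudogene-like copy by its name.

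The study compared 2 subpopulations of lymphoid-primed multipotent progenitors (LMPP), early blood progenitors of mouse bone marrow that keep lymphoid and myeloid potential. All cells came from IRF8-GFP knockin mice, in which green fluorescent protein reports IRF8, a transcription factor of monocyte and dendritic cell development. Both groups were enriched on magnetic columns and sorted as cells without lineage markers, IL-7R or CD150 at the surface and with Sca-1, CD117, CD34 and CD135, and they differ only in the reporter: IRF8-GFP(-) in the negative group and IRF8-GFP(+) in the positive group. Each group had 2 one-colour arrays, exp 1 and exp 2, all hybridized with Cy3-labelled RNA. Strain, age, sex and the number of animals behind an array are not given in the sources used here, no treatment is named, and the labels do not say whether replicate arrays represent different mice. The p-values therefore reflect array-to-array spread that may be purely technical. The negative arrays had 33506 and 33681 of 59305 spots well above background and the positive arrays 29631 and 30266. Irf8, the gene behind the reporter, had log2 signals of 1.64 and 1.60 on the negative arrays against 5.13 and 5.22 on the positive ones, a log2 difference of 3.55 (SE 0.06, limma adjusted p = 0.000802), in the direction of the sort.

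Receptors of these families span the membrane repeatedly and act through heterotrimeric G proteins. P2ry receptors sense extracellular nucleotides released by stressed or dying cells. S1pr and Lpar receptors sense the blood lipids sphingosine 1-phosphate (S1P) and lysophosphatidic acid (LPA), and Ptger receptors sense prostaglandin E2 (PGE2). In bone marrow, S1P receptors steer the exit of progenitors and lymphocytes towards blood, PGE2 receptors act on survival and homing of stem and progenitor cells, and P2ry14 is known as a UDP-glucose receptor of primitive blood cells.

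The promoters of the 5 receptor genes that differed at least 2-fold and have an entry in the RefSeq promoter table (GRCm38.p6), together with that of P2ry10b, the neighbouring copy of P2ry10, are shown because they are the sequences upstream of the largest differences. Each run is the 250 bases before a transcription start, 5′ to 3′ on the strand of the gene, and capitals mark the PU.1 core GAGGAA on either strand (TTCCTC on the other). S1pr3 and Ptger2 rose in the positive group and the others fell.
S1pr3 (chr13:51408368-51408617, plus strand): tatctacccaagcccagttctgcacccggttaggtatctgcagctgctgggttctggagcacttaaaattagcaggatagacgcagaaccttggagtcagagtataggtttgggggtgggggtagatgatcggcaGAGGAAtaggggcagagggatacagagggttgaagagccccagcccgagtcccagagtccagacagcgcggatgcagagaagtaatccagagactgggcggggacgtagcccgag
Ptger2 (chr14:44987861-44988110, plus strand): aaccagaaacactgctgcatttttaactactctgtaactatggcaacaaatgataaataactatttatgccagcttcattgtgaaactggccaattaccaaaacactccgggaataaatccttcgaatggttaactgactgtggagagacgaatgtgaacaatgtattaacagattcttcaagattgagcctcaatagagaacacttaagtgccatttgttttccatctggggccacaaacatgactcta
P2ry10 (chrX:107089083-107089332, plus strand): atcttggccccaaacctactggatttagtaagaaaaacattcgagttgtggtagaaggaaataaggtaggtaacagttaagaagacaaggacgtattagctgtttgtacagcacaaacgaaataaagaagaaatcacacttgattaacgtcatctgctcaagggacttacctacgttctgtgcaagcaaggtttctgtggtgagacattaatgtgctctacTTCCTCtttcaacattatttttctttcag
P2ry10b (chrX:107149365-107149614, plus strand): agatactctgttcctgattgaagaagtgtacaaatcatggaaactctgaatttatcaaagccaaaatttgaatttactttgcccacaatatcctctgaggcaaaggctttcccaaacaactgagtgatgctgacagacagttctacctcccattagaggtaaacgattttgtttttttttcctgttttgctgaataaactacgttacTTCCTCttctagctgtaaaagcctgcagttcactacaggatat
Gpr4 (chr7:19212288-19212537, plus strand): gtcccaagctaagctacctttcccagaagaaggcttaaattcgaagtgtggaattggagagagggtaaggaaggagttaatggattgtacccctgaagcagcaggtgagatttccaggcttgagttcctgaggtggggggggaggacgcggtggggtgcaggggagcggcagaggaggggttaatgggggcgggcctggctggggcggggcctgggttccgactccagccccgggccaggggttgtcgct
Gpr84 (chr15:103310439-103310688, minus strand): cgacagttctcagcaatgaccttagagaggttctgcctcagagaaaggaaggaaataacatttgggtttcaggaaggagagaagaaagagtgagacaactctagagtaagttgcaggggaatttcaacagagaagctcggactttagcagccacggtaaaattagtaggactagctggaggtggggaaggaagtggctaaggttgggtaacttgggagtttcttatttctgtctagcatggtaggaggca

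These windows were searched on both strands for 3 motifs: the PU.1 core, the ETS-IRF composite element (GGAA, any 2 bases, GAAA) and the interferon response element (GAAA, any 2 bases, GAAA). PU.1 is a myeloid transcription factor that can bind DNA together with IRF8. The PU.1 core lay 115 to 110 bases before the start of S1pr3, 29 to 24 bases before one start of P2ry10 and 43 to 38 bases before one start of P2ry10b. Ptger2, Gpr4 and Gpr84, the other start of P2ry10 and the other starts of P2ry10b had no match to any of the 3. The core is short and common: 23.3% of all 32851 promoters of the table held it in the same window, as did 13 of the 48 promoters (27.1%) that 35 tested receptor genes had in the table, several of which overlap. All 4 starts of P2ry14 held it, but some of their windows overlap and share a site. No tested receptor promoter held the composite element, found in 2.3% of all promoters, and 1, that of Gpr18, held the interferon response element, found in 2.98%. A match is a description of letters and not a measured binding site.

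Of the 95 genes, 41 were well above background on all 4 arrays, 7 on 1 to 3 arrays and 47 on no array. The families differed in how many members were seen. On all 4 arrays these were 6 of 9 P2ry genes, 4 of 5 S1pr genes, 3 of 6 Lpar genes, 3 of 4 Ptger genes and 25 of 71 Gpr genes. Not above background on any array were the nucleotide receptors P2ry4, P2ry6 and P2ry12, the last being the platelet and microglial ADP receptor, the S1P receptor S1pr5 of natural killer cells, the LPA receptors Lpar1 and Lpar3, and the PGE2 receptor Ptger1. The same held for Gpr34, Gpr55 and Gpr119, which sense lysophospholipids or related lipids, for Gpr15, a homing receptor of gut T cells, and for 36 further Gpr genes, among them many of nervous tissue such as Gpr37 and Gpr50.

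**Figure D1:**
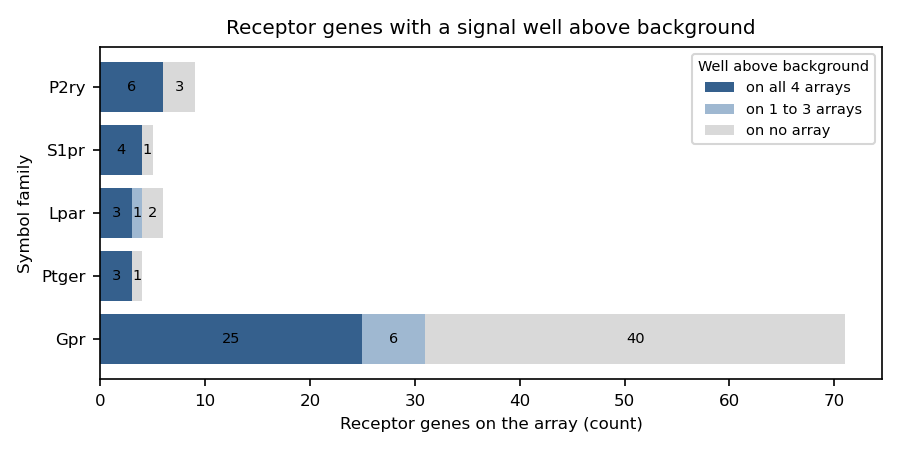
Bars count the receptor genes of each symbol family on the array (x axis) by the number of arrays on which any probe was well above background. The Gpr family has the largest share of genes seen on no array, 40 of 71, against 1 of 5 for S1pr.

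No receptor gene was well above background on both positive arrays and on neither negative array, and 1 gene, the LPA receptor Lpar4, showed the opposite pattern. Its log2 signal was -3.75 and -4.42 on the negative arrays and -4.30 and -5.49 on the positive arrays. These values overlap between the groups, and the dimmest signal that still counted as above background was higher on the positive arrays (-3.99 and -4.01) than on the negative ones (-4.67 and -4.73), and the lower of the negative values lies below the floor of the positive arrays. The fitted difference of -0.81 (SE 0.48) did not pass the threshold (limma adjusted p = 0.213), although it passed without positive replicate 1 (-1.41, adjusted p = 0.0271).

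A few further genes were seen on single arrays and not tested. Gpr183 (EBI2), the oxysterol receptor that positions B cells and dendritic cells, was above background on positive replicate 2 alone, with log2 signals of -5.18 and -5.57 on the negative arrays against -3.67 and -3.12 on the positive ones. The positive values of Gpr183 were both above the negative ones, but a value below background has no reliable order. Gpr20 was above background on negative replicate 2 alone, at -4.43 and -4.10 on the negative arrays against -6.02 and -5.91 on the positive ones. Gpr180 and Gpr31b were also seen on negative replicate 2 alone, and Gpr35 on 1 array of each group.

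Signals are log2 values relative to the 75th percentile of each array, and every difference is positive minus negative. In IRF8-GFP positive LMPP, limma called 12 of the 43 tested genes higher and 13 lower at an adjusted p under 0.05 (25 in all), and 18 were not called. Over all genes tested 59.9% passed, 38.5% higher and 21.4% lower. The receptor genes passed at a share near that of all genes (58.1%), with 27.9% higher and 30.2% lower. Their median difference was 0.10 (all genes: 0.16). Of the 43, 41 were above background on all 4 arrays, while Lpar4 and Gpr179 entered through the negative group, where they are brighter. The groups did not overlap in 37 of the 43, where the share over all genes was 82.2%.

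Differences of at least 2-fold were found in 6 receptor genes: S1pr3 and Ptger2 rose, and S1pr1, P2ry10, Gpr4 and Gpr84 fell. Over all genes 7.93% differed by that much, 2.33% higher and 5.61% lower. These 6 and the smaller difference of Gpr26 kept their direction and stayed past the threshold under all 16 alternative settings. Small differences depend on how the arrays are scaled. The median of all genes was 0.16 with the 75th percentile, 0.04 with quantile normalization, 0.02 with cyclic loess and -0.14 with spike-in scaling. With spike-in scaling 3 receptor genes were higher and 20 lower, so the split of 12 and 13 holds for the 75th percentile scaling.

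**Figure D2:**
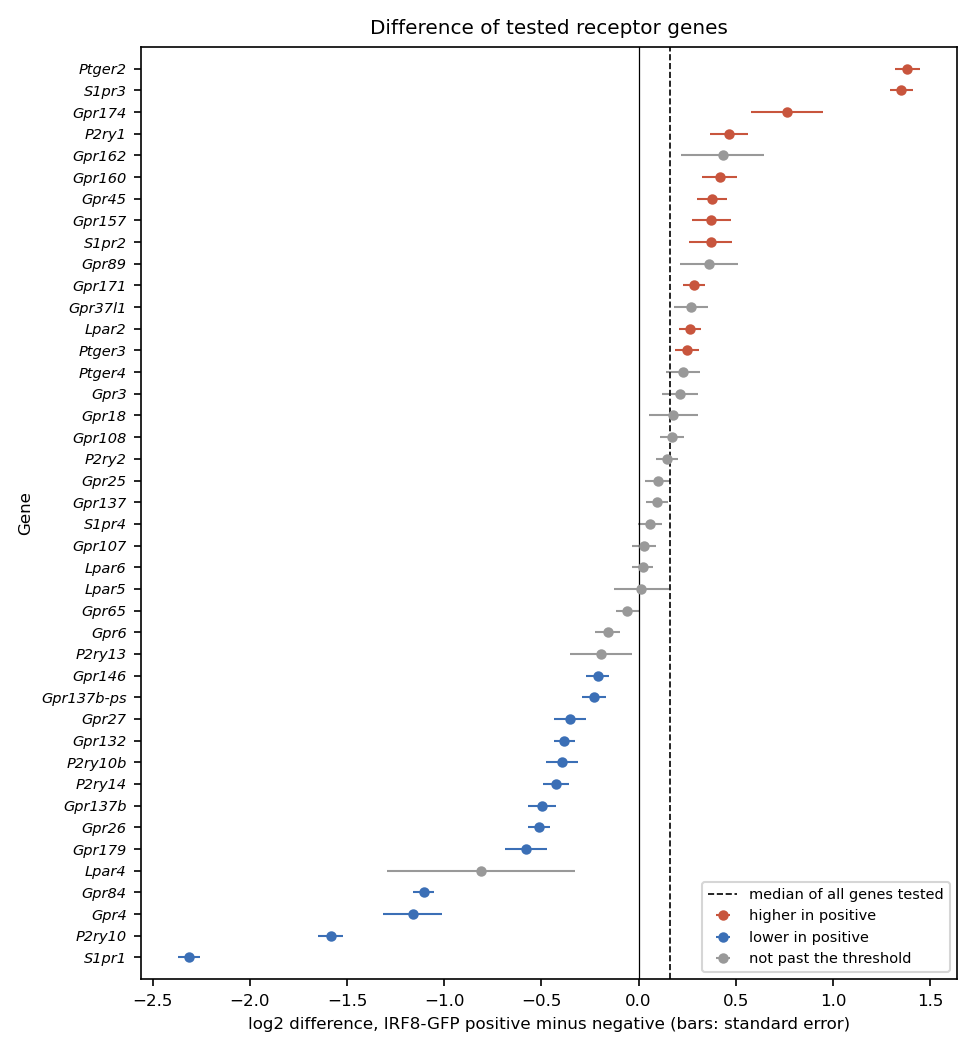
Points give the log2 difference of the tested receptor genes with 1 left out (positive minus negative, x axis) with its standard error, coloured by direction where limma's adjusted p was under 0.05, and the dashed line is the median of all genes (0.16). S1pr1, P2ry10, Gpr4 and Gpr84 lie below -1 and Ptger2 and S1pr3 above 1.

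The sphingosine 1-phosphate receptors moved in opposite directions. S1pr1, the receptor that draws lymphocytes and progenitors towards S1P in blood and lymph, had log2 signals of -0.37 and -0.35 on the negative arrays and -2.69 and -2.66 on the positive arrays. Both positive arrays were far below both negative ones, a 4.97-fold lower signal (log2 difference -2.31, SE 0.05, limma adjusted p = 0.000835), the largest difference among the 43 and -1.54 with normexp background correction. S1pr3, a receptor that couples to several G proteins, had 0.57 and 0.58 on the negative arrays against 1.96 and 1.89 on the positive ones. Here both positive arrays were higher, by 2.55-fold (1.35, SE 0.06, adjusted p = 0.00137).

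S1pr2, a receptor that restrains migration, had -0.87 and -0.85 on the negative arrays against -0.63 and -0.35 on the positive ones. The groups did not overlap, but the positive arrays lay apart from each other, and the difference of 0.37 (SE 0.11) passed narrowly (adjusted p = 0.048). It did not pass without negative replicate 1 (0.36, adjusted p = 0.163), negative replicate 2 (0.38, 0.157) or positive replicate 2 (0.23, 0.0696). The call was also lost with cyclic loess (0.38, adjusted p = 0.06), and with spike-in scaling the difference shrank to 0.06 (adjusted p = 0.622). In all, S1pr2 lost its call under 7 of the 16 alternatives. S1pr4, a receptor of blood cells, had 0.40 and 0.49 on the negative arrays against 0.53 and 0.49 on the positive ones, which overlap (difference 0.06, SE 0.06, adjusted p = 0.461). Its sign turned below 0 under 5 of the other scalings. With spike-in scaling S1pr4 passed as lower (-0.249, adjusted p = 0.0427).

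Of 6 tested genes that make, break down or export S1P, 2 rose, 1 fell and 3 passed in neither direction. Over all genes 38.5% were called higher and 21.4% lower. Spns2, an S1P exporter, had 5.56 and 5.62 on the negative arrays against 4.88 and 4.94 on the positive ones and fell by 0.68 on the log2 scale (SE 0.06, adjusted p = 0.00278). Sphk2, a kinase that makes S1P, rose by 0.44 (SE 0.07, adjusted p = 0.00822), but not without negative replicate 1 (0.42, adjusted p = 0.0593), with spike-in scaling (0.13, 0.114) or with cyclic loess (0.16, 0.0847). Sgpp1, an S1P phosphatase, had a difference of 0.22 (SE 0.06, adjusted p = 0.038), which did not pass without any 1 of the 4 arrays (0.19 to 0.26, adjusted p from 0.0636 to 0.174) and turned below 0 with quantile normalization, cyclic loess, spike-in scaling and in the deposited matrix values.

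The prostaglandin E2 receptors were higher or level. Ptger2 (EP2), which raises cyclic AMP through Gs, had -0.51 and -0.50 on the negative arrays against 0.83 and 0.93 on the positive ones. The groups lay well apart, with a 2.61-fold higher signal in the positive group (1.38, SE 0.06, limma adjusted p = 0.00144). Ptger4 (EP4), which also couples to Gs, had -1.04 and -0.90 on the negative arrays against -0.67 and -0.81 on the positive ones. Its difference of 0.23 (SE 0.09) did not pass (adjusted p = 0.0847), though it did with quantile normalization (0.31, adjusted p = 0.0499). With spike-in scaling the difference of Ptger4 turned to -0.08. Ptger3 (EP3), which couples mainly to Gi, had 0.41 and 0.50 against 0.71 and 0.70. Its difference of 0.25 (SE 0.06, adjusted p = 0.0296) is only 0.09 above the median of all genes, did not pass without any 1 of the 4 arrays (0.205 to 0.297, adjusted p from 0.0748 to 0.145) and turned to -0.06 with spike-in scaling. The second probe of Ptger3 showed 0.12 (SE 0.15), and no direction can be given for this receptor.

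Of 6 tested genes of PGE2 synthesis and uptake, 3 were called higher and 2 lower (38.5% and 21.4% over all genes). Pla2g4a, which releases arachidonic acid, did not pass (-0.20, SE 0.07, adjusted p = 0.062). Ptgs1 (COX-1), which makes the precursor of all prostaglandins, had 1.66 and 1.58 on the negative arrays against -1.02 and -0.79 on the positive ones and was 5.74-fold lower in the positive group (-2.52, SE 0.10, adjusted p = 0.0013). Ptges3, a cytosolic PGE synthase and co-chaperone, rose by 0.96 (SE 0.06, adjusted p = 0.00176) and Ptges2 by 0.73 (SE 0.06, adjusted p = 0.00253). Ptges was called higher with 0.30 (SE 0.06, adjusted p = 0.0199). Spike-in scaling moves all differences down alike, their median from 0.16 to -0.14. This leaves Ptges near 0, so no direction can be given. Slco2a1, the prostaglandin uptake carrier, fell by 0.91 (SE 0.14, adjusted p = 0.00824), but not without negative replicate 2 (-0.82, adjusted p = 0.0518) or with normexp (-0.14, 0.129). Ptgs2 (COX-2), the inducible enzyme, and Hpgd, which inactivates PGE2, were not tested because they were not above background.

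Of 4 tested lysophosphatidic acid receptors, 1 was called higher and none lower. Lpar6, whose gene lies in an intron of the retinoblastoma gene, had 3.40 and 3.38 on the negative arrays against 3.40 and 3.42 on the positive ones. These overlap, with a difference of 0.02 (SE 0.05, limma adjusted p = 0.741), but the value turned to -0.27 with quantile normalization (adjusted p = 0.0203), -0.31 with cyclic loess (0.0141) and -0.29 with spike-in scaling (0.0207), where it passed, so Lpar6 is level only relative to the 75th percentile. Lpar5 overlapped as well (0.01, SE 0.14, adjusted p = 0.936). Lpar2 had -1.07 and -1.04 against -0.82 and -0.77, a difference of 0.26 (SE 0.06, adjusted p = 0.0204) that lies 0.10 above the median of all genes. It did not pass without negative replicate 1 (0.25, adjusted p = 0.112), negative replicate 2 (0.28, 0.0957) or positive replicate 2 (0.24, 0.0662), and it turned to -0.04 with spike-in scaling.

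Among 4 tested enzymes of LPA, 2 were called lower (21.4% over all genes) and 2 passed in neither direction. The 2 called were Enpp2 (autotaxin), which makes LPA, and Plpp3, a phosphatase that degrades it. Both lay at background on both positive arrays and entered the test only through the negative group, so that only a bound is known. Plpp3 was at least 1.16-fold lower (adjusted p = 0.00237) and Enpp2 at least 1.13-fold lower (adjusted p = 0.0199). For such a bound the brighter group's mean is compared with a floor. On each dimmer array the floor is its own signal or, if higher, the lowest signal well above background, averaged over the arrays. Here and below, a bound holds only for the signals used here and this floor. The adjusted p beside it is limma's for the fitted difference, which uses signals at background, and does not test the bound. Enpp2 did not pass without negative replicate 1 (-0.69), and its sign turned with normexp background correction (0.10), so no direction can be given for it.

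Of the 4 tested nucleotide receptors 1 rose and 1 fell. P2ry1, a Gq-coupled ADP receptor, had -1.23 and -1.05 on the negative arrays against -0.74 and -0.61 on the positive ones. Both positive arrays were higher, by 1.38-fold (0.47, SE 0.10, limma adjusted p = 0.0179), but the gene did not pass without negative replicate 1 (0.37, adjusted p = 0.0787) or with spike-in scaling (0.16, 0.174). P2ry14, the UDP-glucose receptor, had 3.20 and 3.31 on the negative arrays against 2.83 and 2.83 on the positive ones. It was 1.34-fold lower (-0.42, SE 0.07, adjusted p = 0.00904), and did not pass without negative replicate 2 (-0.37, adjusted p = 0.0568).

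P2ry2, an ATP and UTP receptor, had a difference of 0.15 (SE 0.06, adjusted p = 0.0884), close to the median of all genes. P2ry13, an ADP receptor, had one of -0.19 (SE 0.16, adjusted p = 0.341) with overlapping groups. Among the 16 alternatives, P2ry2 passed as higher under 1 and turned below 0 under 4. P2ry13 passed as lower under 1 and turned above 0 under 1. Of 6 tested genes of nucleotide release and breakdown, 4 rose and 1 fell (38.5% and 21.4% over all genes). Entpd1 (CD39), which breaks down extracellular ATP and ADP, had -1.92 and -1.94 on the negative arrays against -2.96 and -3.04 on the positive ones and was 2.10-fold lower (-1.07, SE 0.06, adjusted p = 0.00172). Adk, the adenosine kinase, rose by 0.96 (SE 0.06, adjusted p = 0.00172) and Panx1, an ATP release channel, by 0.50 (SE 0.06, adjusted p = 0.00548). Ada, the adenosine deaminase, rose by 0.44 (SE 0.06, adjusted p = 0.0073), but not without negative replicate 1 (0.39, adjusted p = 0.0516). With quantile normalization neither Ada (0.13, adjusted p = 0.135) nor Panx1 (0.14, 0.118) passed, nor with spike-in scaling (0.13 and 0.19, adjusted p of 0.139 and 0.0715) or cyclic loess (0.09 and 0.12, 0.26 and 0.171).

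**Figure D3:**
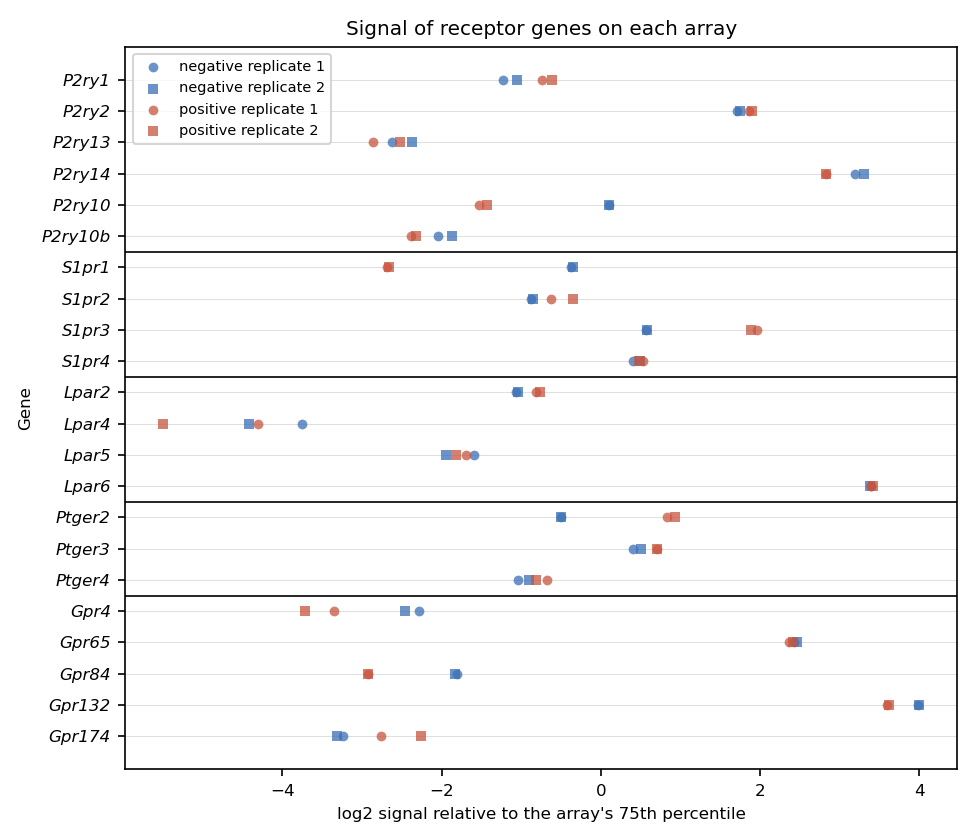
Each point is the log2 signal of a receptor gene on 1 array, relative to the array's 75th percentile (x axis), for the 2 negative (blue) and 2 positive (red) arrays, with lines between the families. S1pr1, P2ry10, Gpr4 and Gpr84 have both red points far left of the blue ones and S1pr3 and Ptger2 far right, while those of Lpar6 coincide; levels of different genes cannot be compared, since each has its own probe.

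Of 6 tested receptors of other lipids, 4 were called lower, 1 higher and 1 had no call. The share called lower was 66.7%, against 21.4% over all genes. Of these receptors only P2ry10 and Gpr84 kept their call under all 16 alternatives. P2ry10, a receptor of lysophosphatidylserine despite its name, had 0.10 and 0.11 on the negative arrays against -1.53 and -1.43 on the positive ones. Both positive arrays were clearly lower, with a log2 difference of -1.58 (SE 0.07, limma adjusted p = 0.00134). Gpr84, a receptor of medium-chain fatty acids found on myeloid cells, had -1.81 and -1.83 against -2.93 and -2.92. Its signal was 2.15-fold lower in the positive group (-1.11, SE 0.05, adjusted p = 0.00147), a difference that shrank to -0.38 with normexp background correction (adjusted p = 0.0075).

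Gpr132, linked to lysophospholipids and oxidized fatty acids, had 3.982 and 3.998 against 3.60 and 3.62. The groups did not overlap and the difference was -0.38 (SE 0.05, adjusted p = 0.00696). It did not pass without negative replicate 1 (-0.39, adjusted p = 0.0526) or negative replicate 2 (-0.37, 0.0558). P2ry10b, the neighbouring copy of P2ry10, had -2.04 and -1.87 against -2.38 and -2.32 (-0.39, SE 0.08, adjusted p = 0.0187), and did not pass without negative replicate 2 (-0.31, adjusted p = 0.0829) or positive replicate 1 (-0.36, 0.054), nor with quantile normalization (-0.27, 0.0664) or normexp (-0.135, 0.13). Its second probe showed -0.35 (SE 0.16) and was above background in the negative group only. How far the probes of P2ry10 and P2ry10b tell the copies apart was not tested.

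Gpr174, another lysophosphatidylserine receptor and the next gene along the X chromosome, has 2 probes, 1 of them at background on all 4 arrays. By the other probe, Gpr174 had -3.23 and -3.31 on the negative arrays against -2.76 and -2.26 on the positive ones. It rose by 0.76 (SE 0.19, adjusted p = 0.0284), while P2ry10 and P2ry10b fell, but it did not pass without negative replicate 1 (0.80, adjusted p = 0.0986), without negative replicate 2 (0.72, 0.121) or with spike-in scaling (0.45, 0.0993). Gpr18 had a difference of 0.18 (SE 0.13, adjusted p = 0.284), and passed without positive replicate 1 (0.34, adjusted p = 0.0299) and with normexp background correction (0.27, 0.0185). Of the enzymes that make or remove the oxysterol ligand of Gpr183, Cyp7b1 was 5.43-fold lower (-2.44, SE 0.07, adjusted p = 0.000979), at -0.69 and -0.56 on the negative arrays against -3.05 and -3.09 on the positive ones. Hsd3b7 fell by 0.53 (SE 0.05, adjusted p = 0.00331), and Ch25h was not above background on any array.

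Gpr4 and Gpr65 are proton-sensing receptors, which respond to acid outside the cell. Gpr4 had -2.28 and -2.46 on the negative arrays against -3.35 and -3.72 on the positive ones, and was 2.24-fold lower (-1.16, SE 0.15, limma adjusted p = 0.00583). With normexp background correction this was -0.33 (adjusted p = 0.0299). Gpr65 (TDAG8), which also couples to cyclic AMP, had 2.42 and 2.47 against 2.36 and 2.42, values that nearly meet, with a difference of -0.06 (SE 0.06, adjusted p = 0.446). It passed as lower with quantile normalization (-0.28, adjusted p = 0.0188), cyclic loess (-0.31, 0.014) and spike-in scaling (-0.37, 0.00897).

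Among the other Gpr genes the differences were small. The constitutively active receptors Gpr3 (0.21, SE 0.09, adjusted p = 0.119) and Gpr6 (-0.16, SE 0.06, adjusted p = 0.0983) did not pass, though Gpr6 passed as lower with spike-in scaling (-0.47, adjusted p = 0.0101). Gpr26, an orphan receptor known from brain, had 0.15 and 0.10 on the negative arrays against -0.40 and -0.38 on the positive ones and fell by 0.51 (SE 0.06, adjusted p = 0.00378), a difference of -0.82 with spike-in scaling. Gpr27, an orphan of the SREB group, fell by 0.35 (SE 0.08, adjusted p = 0.0246), but not with quantile normalization (-0.23, adjusted p = 0.0769), and its sign turned to 0.03 with normexp background correction. Gpr179, known from the retina, fell by 0.58 (SE 0.11, adjusted p = 0.0138) with only 1 positive array above background, and its sign turned to 0.01 with normexp. Without negative replicate 2, Gpr179 (-0.51, adjusted p = 0.075) and Gpr27 (-0.38, 0.0953) did not pass, nor did Gpr27 without negative replicate 1 (-0.33, 0.117) or positive replicate 1 (-0.27, 0.0563).

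Gpr171, an inhibitory receptor of lymphocytes and progenitors that lies next to P2ry14, had 4.44 and 4.39 on the negative arrays against 4.69 and 4.71 on the positive ones. Its difference of 0.29 (SE 0.06, adjusted p = 0.0165) turned to -0.08 with quantile normalization, -0.09 with cyclic loess and -0.02 with spike-in scaling, so no direction can be given, and it did not pass without negative replicate 1 (0.31, adjusted p = 0.0719) or 2 (0.26, 0.102). Gpr160 (0.42, SE 0.09, adjusted p = 0.0205), Gpr45 (0.38, SE 0.08, adjusted p = 0.0173) and Gpr157 (0.38, SE 0.10, adjusted p = 0.0363) rose. None of these 3 passed without negative replicate 1 (0.43, 0.41 and 0.45, adjusted p of 0.0902, 0.0692 and 0.0787) or without negative replicate 2 (0.41, 0.34 and 0.30, adjusted p of 0.1, 0.0972 and 0.157), and Gpr157 also did not pass without positive replicate 1 (0.28, adjusted p = 0.0876). With spike-in scaling Gpr160 (0.11, adjusted p = 0.302), Gpr45 (0.07, 0.463) and Gpr157 (0.07, 0.692) were not called. Gpr157 was also not called with quantile normalization (0.07, adjusted p = 0.634), cyclic loess (0.03, 0.85) or in the deposited matrix values (0.06, 0.646), nor Gpr160 with cyclic loess (0.29, 0.0599). Gpr146, a receptor of hepatocytes and other cells, fell by 0.21 (SE 0.06, adjusted p = 0.0418), a call lost without any 1 of the 4 arrays (-0.25 to -0.17, adjusted p from 0.105 to 0.198). Gpr162 (0.43, SE 0.21, adjusted p = 0.151), Gpr37l1 (0.27, SE 0.09, adjusted p = 0.0577) and Gpr25 (0.10, SE 0.06, adjusted p = 0.237) did not pass, but Gpr162 passed without positive replicate 1 (0.71, adjusted p = 0.0161), as did Gpr37l1 (0.35, 0.0433). Gpr162 also passed with normexp background correction (0.40, adjusted p = 0.00605). Gpr37l1 passed as higher under 7 of the 16 alternatives, among them normexp (0.295, adjusted p = 0.0117), quantile normalization (0.33, 0.0375) and cyclic loess (0.365, 0.0317), and had -0.04 with spike-in scaling.

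Of the 5 tested intracellular membrane proteins that share the Gpr name, 1 fell and 4 did not pass. With spike-in scaling Gpr107 (-0.28, limma adjusted p = 0.0174) and Gpr137 (-0.21, 0.0346) passed as lower. Gpr108 passed as higher when limma's variance prior followed signal intensity (0.17, adjusted p = 0.0176), but was -0.14 with spike-in scaling. Gpr137b, a lysosomal membrane protein, had -0.68 and -0.72 on the negative arrays against -1.26 and -1.13 on the positive ones and fell by 0.50 (SE 0.07, limma adjusted p = 0.00713), but not without negative replicate 1 (-0.48, adjusted p = 0.0536). Its 3 probes showed -0.50, -0.46 and -0.70. The near-identical Gpr137b-ps fell by 0.23 (SE 0.06, adjusted p = 0.0365) by its brighter probe and by 0.70 (SE 0.11) by the other, and signals of the copies may not be separable. The call of Gpr137b-ps was lost without any 1 of the 4 arrays (-0.27 to -0.19, adjusted p from 0.0723 to 0.178). Gpr107 (0.03, SE 0.06), Gpr108 (0.17, SE 0.06), Gpr137 (0.10, SE 0.06) and Gpr89 (0.36, SE 0.15) had adjusted p-values of 0.725, 0.0802, 0.213 and 0.0996, and Gpr89 passed without positive replicate 1 (0.54, adjusted p = 0.0214) and with normexp (0.37, 0.00388).

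**Figure D4:**
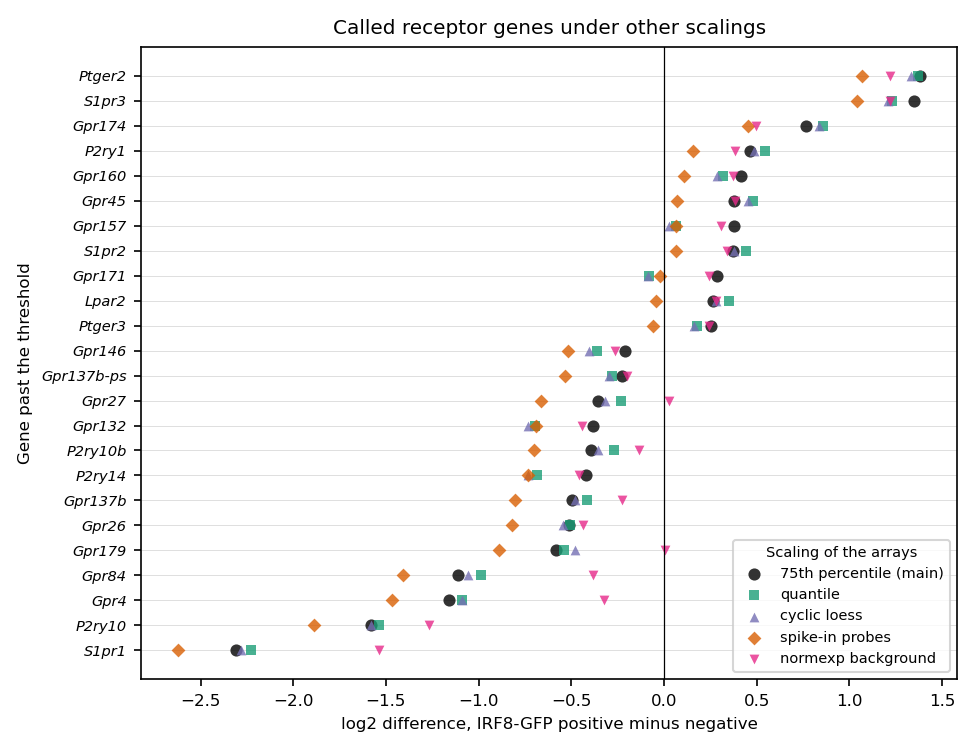
Points give the log2 difference (positive minus negative, x axis) of the receptor genes past the threshold, 1 left out, under the 75th percentile scaling and 4 other treatments of the signals. The outermost genes stay on their side of 0 under all 5, whereas Gpr171, Lpar2 and Ptger3 fall below it with spike-in scaling and Gpr27 and Gpr179 lie at 0.03 and 0.01 with normexp background correction.

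Several receptor genes lie next to each other in the genome, and neighbours did not always share a direction. In the gene order of the GRCm38.p6 annotation, several receptor genes are adjacent among protein-coding genes. On chromosome 3, Gpr171 is adjacent to P2ry14 and P2ry13 to P2ry12. P2ry14 fell by 0.42, Gpr171 and P2ry13 had 0.29 and -0.19 without a direction that can be given, and P2ry12 was not above background. On the X chromosome, Lpar4, P2ry10, P2ry10b and Gpr174 follow one another, with differences of -0.81 (not passed), -1.58, -0.39 and 0.76. On chromosome 14 Gpr18 (0.18, not passed) neighbours Gpr183, and on chromosome 7 P2ry6, not above background, neighbours P2ry2 (0.15, not passed).

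Genes outside the symbol rule that work with these receptors were taken from lists by role, and 82 of 112 on the array were tested. Of these 25 rose and 26 fell, a share of 62.2% (59.9% over all genes). Among 11 tested G protein alpha subunits 5 were called higher (45.5%, against 38.5% over all genes, limma). None was called lower (21.4% over all genes). Gnai2, the main inhibitory subunit of blood cells, rose by 0.49 (SE 0.10, adjusted p = 0.0191), Gna15, a Gq-type subunit of blood cells, by 0.45 (SE 0.06, adjusted p = 0.00677) and Gna12 by 0.42 (SE 0.09, adjusted p = 0.0171). Gna13 had 0.25 (SE 0.06, adjusted p = 0.03) and no direction can be given, since it turned below 0 with quantile normalization, cyclic loess and spike-in scaling. With spike-in scaling Gnai2 (0.18, adjusted p = 0.29), Gna15 (0.14, 0.191) and Gna12 (0.12, 0.387) did not pass, nor did Gnai2 with quantile normalization (0.02, 0.882) or cyclic loess (0.09, 0.477). Gnai2 and Gna12 did not pass without negative replicate 1 (0.49 and 0.37, adjusted p of 0.0899 and 0.0906) or 2 (0.50 and 0.47, adjusted p of 0.0896 and 0.0627), and Gna13 not without any 1 of the 4 arrays (0.204 to 0.293, adjusted p from 0.0743 to 0.147).

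Of 7 tested receptor kinases and arrestins 4 were called lower (57.1%, against 21.4% over all genes) and 2 higher (28.6%, against 38.5%). Grk3 fell by 0.64 (SE 0.06, adjusted p = 0.00289) and Grk5 by 0.58 (SE 0.11, adjusted p = 0.0133), the latter not without negative replicate 1 (-0.48, adjusted p = 0.0644) or with normexp (-0.05, 0.667). Grk6 rose by 0.43 (SE 0.06, adjusted p = 0.00805), but not without negative replicate 1 (0.42, adjusted p = 0.0585) or 2 (0.445, 0.0532), nor with quantile normalization (0.18, 0.0816), spike-in scaling (0.12, 0.265) or cyclic loess (0.14, 0.153). Grk4, at background on both positive arrays, was called lower (adjusted p = 0.00984), with a bound of 1.33-fold. Its sign turned with normexp (0.13), so no direction can be given, and it did not pass without negative replicate 1 (-0.45) or 2 (-0.49).

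RGS proteins, which switch G proteins off, moved both ways, with 4 of 13 tested higher (30.8%) and 3 lower (23.1%). Over all genes 38.5% were called higher and 21.4% lower, so the RGS shares are near those of all genes. Rgs1, which dampens responses to chemokines and S1P in lymphocytes, had 0.77 and 0.81 on the negative arrays against -0.93 and -0.88 on the positive ones, and was 3.24-fold lower (-1.70, SE 0.06, adjusted p = 0.00114). Rgs10 rose by 1.002 (SE 0.07, adjusted p = 0.00193), Rgs8 rose by 0.73 (SE 0.07, adjusted p = 0.00284) and Rgs11 fell by 0.71 (SE 0.06, adjusted p = 0.00229). Of 5 tested adenylyl cyclases, which make cyclic AMP, Adcy9 fell by 0.77 (SE 0.08, adjusted p = 0.00381) and Adcy6 by 0.65 (SE 0.07, adjusted p = 0.00404), and the other 3 did not pass.

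Of 22 tested related receptors with other names, 5 rose (22.7%, against 38.5% over all genes) and 9 fell (40.9%, against 21.4%). The share called either way was 63.6%, near the 59.9% of all genes. Adora3, an adenosine receptor, entered the test only through the positive group, since neither negative array was well above background. By the bound it was at least 1.86-fold higher. Its adjusted p (limma, 0.00351) rests on negative signals of -6.18 and -6.99, below the floor, and does not test the bound. Adgrg5, an adhesion receptor of blood cells, was 2.60-fold higher (1.38, SE 0.06, adjusted p = 0.00141). Hcar2, the niacin receptor, was at least 2.09-fold lower (adjusted p = 0.0237), although not without negative replicate 1 (-2.10, adjusted p = 0.0966) or 2 (-2.11, 0.0986), and Ptgir, the prostacyclin receptor, was 2.09-fold lower (-1.06, SE 0.08, adjusted p = 0.00222). The 9 that fell also include the ATP-gated channel P2rx1 (-0.81), and the adenosine receptors Adora2a (-0.56) and Adora2b (-0.43).

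**Figure D5:**
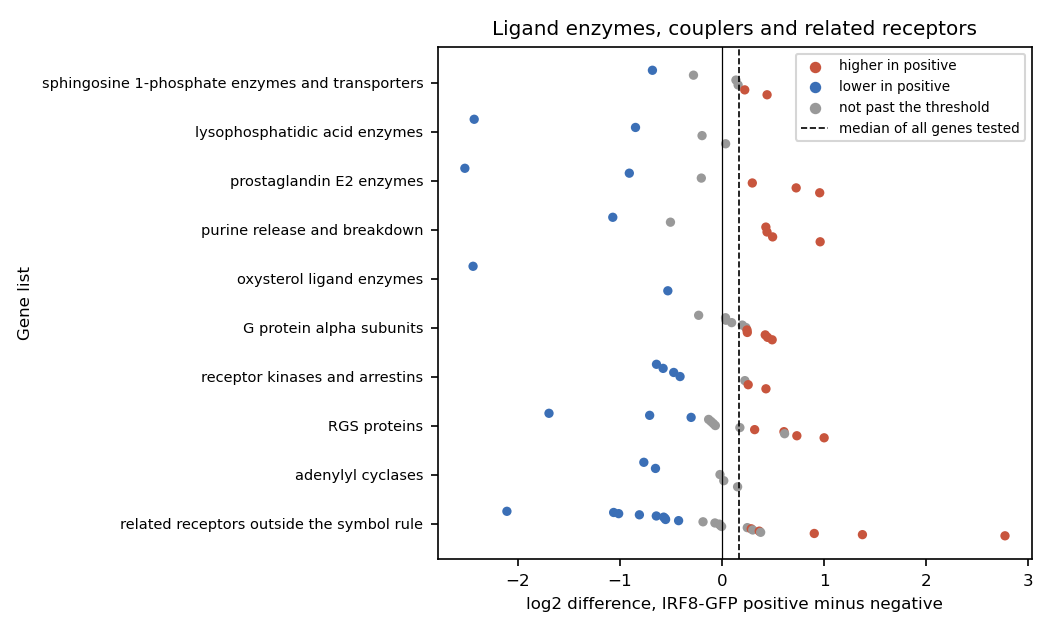
Each point is the log2 difference (positive minus negative, x axis) of 1 tested gene of the lists that accompany the receptors, with the same colours as for the receptors and the median of all genes as a dashed line. Ptgs1 and Cyp7b1 lie below -2, and the points of Plpp3, Enpp2, Grk4, Hcar2 and Adora3 are fitted values against a group at background, for which only the bounds given in the text are known. The G protein alpha subunits stay between -0.23 and 0.49.

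Markers of other cell types differed between the same arrays, and in RNA of sorted cells a change in the share of a cell type and a change of RNA per cell cannot be told apart. Of 5 tested monocyte and macrophage markers 4 rose, led by Cx3cr1 (4.48), with a summed log2 level of 3.36 to 3.39 on the negative and 5.85 to 5.90 on the positive arrays. Of 7 tested platelet and megakaryocyte markers 6 fell (summed level 4.11 to 4.18 against 2.09 on both positive arrays), and of 6 tested stem cell markers 5 fell (6.11 to 6.16 against 4.71 to 4.79), with Slamf1 at background. Of 6 tested red cell markers 4 fell (3.81 to 3.95 against 3.20 to 3.27). A summed level adds the signals of different probes and is set mostly by the brightest gene, so it does not measure the share of a cell type. For conventional dendritic cells this gene is H2-Ab1 (mean 4.33 on the negative and 4.25 on the positive arrays). For plasmacytoid ones it is Siglech (6.88 and 6.69), and neither gene was called. Dendritic cell markers also moved. Of 5 tested conventional dendritic cell markers 3 rose, Clec9a at least 8.04-fold, Itgax by 1.34 and Batf3 by 1.18 (summed level 4.35 to 4.45 against 4.41 to 4.48), with Xcr1, Cd209a and Irf4 at background. Of 7 tested plasmacytoid dendritic cell markers 4 rose, among them Ly6d (3.34) and Cox6a2 (2.999), and Ccr9 fell by 1.81 (summed level 7.19 to 7.58 against 7.35 to 7.55). Of 4 tested B lineage markers 2 rose, Vpreb1 by 0.74 and Cd79b by 0.36 (3.47 to 3.54 against 3.88 to 3.91), with Ms4a1, Ebf1 and Igll1 at background. Of 4 tested T and NK markers 2 were called higher, Klrb1c with 0.48 and Nkg7 with 0.20 (5.21 to 5.24 against 5.42 to 5.45), with Cd3d, Cd3g, Cd8a and Ncr1 at background. The value of Nkg7 is close to the median of all genes (0.16), which was -0.14 with spike-in scaling. Of 6 tested neutrophil markers 1 rose and 1 fell, of 5 tested mast cell and basophil markers 1 rose, and of 5 tested stroma and endothelium markers 1 rose and 1 fell. Over all genes 38.5% were called higher and 21.4% lower. The part of these marker shifts in the receptor differences was not tested. Of the genes of the sorting gate, Ly6a (Sca-1) fell by 0.96 and Il7r, whose protein the sort excluded, rose by 2.40. Kit (CD117) fell by 0.39, but not without negative replicate 1 (-0.405, adjusted p = 0.0515) or 2 (-0.367, 0.0597), Cd34 (0.26) and Flt3 (0.25) turned below 0 with quantile normalization, cyclic loess and spike-in scaling, and Slamf1 (CD150) was at background.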

How the data were processed

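RNA of 4 sorted samples, 2 per group, was read on Agilent 1-colour arrays. Per the file headers, the authors extracted the scans with Agilent Feature Extraction 10.7.3.1. The deposited intensity used here is the processed signal, from which the software had removed background and spatial trend, with no normalization across arrays. The series matrix, also deposited as intensity, has the same sorted values in every column, as quantile normalization gives, with the centring not given in the sources used here.

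Control and outlier spots were left out, spots of a probe averaged, and log2 taken relative to the 75th percentile of each array. Symbols come from RefSeq accessions of GRCm38.p6 (26756 of 55669 probes), used for names and gene order because the file headers place the array design on another build. No coordinates but those of the promoter sequences are given. To be tested, a probe needed both arrays of a group well above background (a spot share of 0.5 or more per array), and a gene was represented by its brightest tested probe. The groups were compared with limma 3.58.1 in R 4.3.3 (lmFit, eBayes, two-sided, Benjamini-Hochberg over all 22362 genes and unnamed transcripts, threshold 0.05). An exact permutation of 2 against 2 arrays cannot go below p = 0.333. The fit was tested on simulated data with few changed genes. Fitted sizes matched on average for the larger changes, small changes were not called and most 2-fold changes were missed. Since a far larger share of genes was called in the real data, the simulation does not show how small calls behave there.

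The receptor genes, partner and marker lists, tests and alternatives were chosen with earlier results of these data known. Named are receptors past the threshold at 2-fold, every P2ry, S1pr, Lpar and Ptger gene above background, and up to 4 genes per partner list, and the further Gpr genes, partner genes and markers were added after their values were seen. A comparison of protein sequences that had been planned was not made. Arrays of the same number were not treated as pairs (correlation of their deviations from the group means, over genes, 0.10). Results for a few genes are not reported here, although they enter the counts.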

Additional observations from a re-analysis of the deposited data

How the results depend on the processing

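Of the 25 receptor calls, 8 kept their direction and their side of the threshold under all 16 alternatives, 12 lost the call under some and 5 turned direction under some (Gpr171, Lpar2, Ptger3, Gpr27 and Gpr179). The cause was not tested where calls were lost by scaling, and leaving out 1 array leaves a group with 1 array that is assumed to vary like the other group. Without 1 array, receptor genes higher in the positive group numbered 3 to 14 (12 with all arrays) and lower 6 to 11 (13), and partner genes higher 10 to 21 (25) and lower 17 to 27 (26). With the replicate number as a block, 15 receptor genes were higher and 13 lower. The block ended the call of Gpr146 (adjusted p = 0.0539) and brought Lpar4, Gpr3, Gpr37l1 and Gpr89 past the threshold. Receptor genes higher numbered 7 when arrays were centred on probes above background on all arrays, 3 with spike-in scaling and 33 with no filter on dim probes, and 20 were lower with spike-in scaling. Partner genes higher numbered 14 with quantile normalization, 8 with spike-in scaling, 12 with cyclic loess, 14 in the deposited matrix values and 38 with no filter, and 42 were lower with spike-in scaling. Of all calls 64.3% were higher with the 75th percentile, 52.6% with quantile normalization, 49.1% with cyclic loess and 28.9% with spike-in scaling.

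The log2 difference changed sign, most of these values lying near 0, in the following genes. With quantile normalization these were Cd34 (-0.137), Flt3 (-0.223), Gna13 (-0.0494), Gpr107 (-0.0604), Gpr108 (-0.0977), Gpr137 (-0.107), Gpr171 (-0.0805), Lpar6 (-0.266), P2ry2 (-0.00611), S1pr4 (-0.00581) and Sgpp1 (-0.0895). With cyclic loess these were Cd34 (-0.21), Flt3 (-0.171), Gna13 (-0.0908), Gpr107 (-0.08), Gpr108 (-0.146), Gpr137 (-0.136), Gpr171 (-0.0893), Lpar6 (-0.314), P2ry2 (-0.0511), S1pr4 (-0.0208) and Sgpp1 (-0.128). In the deposited matrix values these were Cd34 (-0.14), Flt3 (-0.226), Gna13 (-0.0506), Gpr107 (-0.0617), Gpr108 (-0.0996), Gpr137 (-0.109), Gpr171 (-0.0835), Lpar6 (-0.269), P2ry2 (-0.00765), S1pr4 (-0.00691) and Sgpp1 (-0.0909). With spike-in scaling these were Cd34 (-0.0449), Flt3 (-0.0579), Gna13 (-0.06), Gpr107 (-0.281), Gpr108 (-0.136), Gpr137 (-0.213), Gpr171 (-0.0217), Gpr18 (-0.13), Gpr25 (-0.21), Gpr3 (-0.0965), Gpr37l1 (-0.0369), Lpar2 (-0.0441), Lpar5 (-0.294), Lpar6 (-0.286), P2ry2 (-0.161), Ptger3 (-0.0577), Ptger4 (-0.0801), S1pr4 (-0.249) and Sgpp1 (-0.085). Centred on probes above background on all arrays these were Gpr107 (-0.0752), Gpr137 (-0.00697), Gpr25 (-0.00459), Lpar5 (-0.0883), Lpar6 (-0.0802) and S1pr4 (-0.0436). With normexp background correction these were Enpp2 (0.104), Gpr179 (0.00648), Gpr27 (0.0264), Grk4 (0.132), Lpar4 (0.117), Lpar6 (-0.02) and P2ry13 (0.0706). Leaving out 1 array at a time, Gpr107 ranged from -0.00712 to 0.0619 and was below 0 without positive replicate 2 (-0.00712) and without negative replicate 1 (-0.00352), and Lpar5 ranged from -0.159 to 0.188 and was below 0 without negative replicate 2 (-0.159) and without positive replicate 1 (-0.0516).

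On the positive arrays the lowest signal well above background lay at -3.99 and -4.01, above that of the negative arrays (-4.67 and -4.73), and dim genes were therefore measured less fully in the positive group. With 2 arrays per group, the exact permutation test of a single gene cannot go below p = 0.333. A comparison of receptor protein sequences was not run.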
